A study of Homo sapiens with 6 samples.

Results

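The genes described here are 10 markers of the epithelial-mesenchymal transition (EMT), taken by symbol from the deposited count table. They are 6 transcription factors, SNAI1, SNAI2, ZEB1, ZEB2, TWIST1 and TWIST2, and 4 effectors, the cadherins CDH2 and CDH11, vimentin (VIM) and fibronectin (FN1). All 10 are among the 31582 genes of that table, and 8 passed the filter on low counts that left 16394 genes for testing. TWIST2 and CDH11 did not pass it. The samples are MDA-MB-231 cells, an established human breast cancer line. In 3 libraries the cells carried an shRNA against CALR, which encodes the endoplasmic reticulum chaperone calreticulin, and in 3 control libraries a non-targeting construct. Both groups were grown in serum-containing medium and harvested before confluence. How many shRNA sequences or cell pools were used, and whether the libraries of a group come from separate cultures, is not stated, so the spread between them may be technical. The study's title concerns calreticulin as a product of HIF-1 activity and its link to the Wnt/beta-catenin pathway in breast cancer.

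In EMT, epithelial cells give up their junctions and take on a motile, matrix-producing state. SNAIL, ZEB and TWIST proteins drive it: the SNAIL and ZEB zinc finger factors bind E-box sequences and repress epithelial genes such as CDH1 (E-cadherin), and the TWIST basic helix-loop-helix factors act beside them. Vimentin filaments, N-cadherin (CDH2), OB-cadherin (CDH11) and fibronectin are classical products of the mesenchymal state. MDA-MB-231 is regarded as a mesenchymal, hormone receptor-negative line.

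Library totals lay between 34639090 and 42425310 counts. CALR was at 493, 66.4 and 110 CPM (counts scaled to library size) in knockdown replicates 1 to 3, against 1213, 979 and 926 CPM in control replicates 1 to 3. Knockdown replicate 1 thus kept 47.5% of the control mean, while replicates 2 and 3 kept 6.39% and 10.6%. The log2 fold change of CALR was −2.22 ± 0.64 (adjusted p = 0.209 in edgeR's quasi-likelihood test), and −3.55 without knockdown replicate 1. All 10 markers listed for the line, which include VIM from the set described here, were above 1 CPM in every library. The 10 luminal epithelial markers summed to 129 to 254 CPM in knockdown and 179 to 230 CPM in control libraries, and 5 of them were above 1 CPM in every library. KRT19 was the most abundant, at 70.2 to 128 CPM in knockdown and 79.9 to 90.0 CPM in control libraries, and ERBB2 and AGR2 followed. The defining markers CDH1, at 0.0537 to 1.14 CPM in knockdown and 0.115 to 0.329 CPM in control libraries, and ESR1, at 0.343 to 0.596 CPM and 0.357 to 0.573 CPM, were low. Markers of other cells were scarce. The 10 fibroblast markers summed to 16.8 to 21.6 CPM in knockdown and 20.3 to 26.2 CPM in control libraries, the 10 endothelial markers to between 11 and 22.6 and 13.0 to 28.1 CPM, and the 9 blood markers in the table to 4.45 to 6.92 and 5.68 to 6.19 CPM. PDGFRA, POSTN, VWF, CDH5 and CD3E, which help to define those cells, were each at 0 in at least 1 library and never above 0.132 CPM. Other markers on the same lists were higher. Over all libraries ROBO4 was at 7.68 to 21.8 CPM, LUM at 5.13 to 13.3, COL1A1 at 3.76 to 13.2 and CD68 at 3.28 to 5.15.

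The 10 genes span a very wide range of levels. On the authors' FPKM scale, which divides by gene length and depth, VIM stood at 1177 ± 124 in knockdown libraries and 819 ± 26.2 in controls (mean ± SD of 3 libraries, as in the sentences that follow). FN1 followed at 35.4 ± 23.8 and 32.7 ± 3.04 FPKM. Among the factors SNAI2 was the most abundant, at 7.47 ± 2.97 FPKM in knockdown and 11.6 ± 0.180 in control libraries. ZEB1 came next at 3.89 ± 3.11 and 4.68 ± 0.716 FPKM, then SNAI1 at 1.33 ± 0.708 and 2.47 ± 1.11, and ZEB2 at 0.657 ± 0.0987 and 0.90 ± 0.0361. TWIST1, CDH2 and TWIST2 reached at most 0.68, 0.43 and 0.32 FPKM in any library, and CDH11 at most 0.03 FPKM. In the controls each of the first 7 genes, from VIM down to TWIST1, had a range apart from that of the next one up. The ranges of TWIST1 and CDH2 and those of CDH2 and TWIST2 overlapped. In knockdown libraries the ranges of SNAI2 and ZEB1 and those of SNAI1 and ZEB2 overlapped as well, as did those of the last 4 genes.

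**Figure D1:**
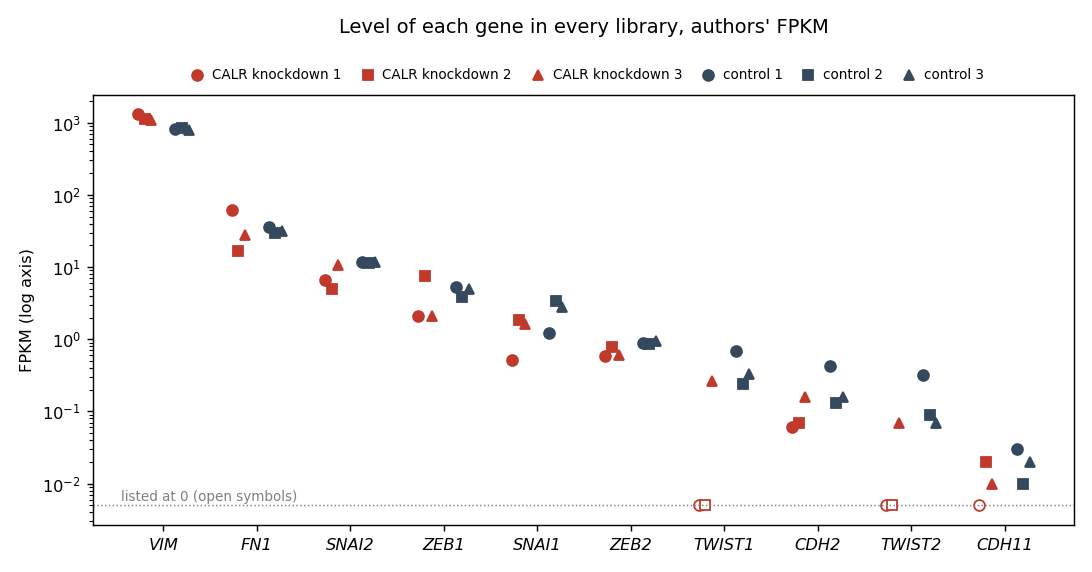
Authors' FPKM (log axis) of the 10 genes in each of the 6 libraries, with knockdown in red to the left of control in blue and 1 symbol for each replicate number. VIM at 795 FPKM or more stands far above the rest, and open symbols mark knockdown libraries in which TWIST1, TWIST2 or CDH11 is listed at 0.

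Promoter windows from RefSeq (GRCh38.p14) were used for 6 of the 10 genes, ZEB1, ZEB2, TWIST2, CDH2, VIM and FN1. None was used for SNAI1, SNAI2, TWIST1 or CDH11. The windows of VIM and ZEB2 are shown because these are the genes whose knockdown and control libraries did not overlap, and 1 of 7 windows of ZEB1 because it alone holds more than 1 E-box. Each is the 250 bases before a transcription start, in lower case, with capitals marking the E-box CACCTG, which reads CAGGTG from the other strand, and the GC box GGGCGG, which reads CCGCCC from the other strand. These motifs do not overlap each other here.
VIM, chr10:17227991-17228240, plus strand: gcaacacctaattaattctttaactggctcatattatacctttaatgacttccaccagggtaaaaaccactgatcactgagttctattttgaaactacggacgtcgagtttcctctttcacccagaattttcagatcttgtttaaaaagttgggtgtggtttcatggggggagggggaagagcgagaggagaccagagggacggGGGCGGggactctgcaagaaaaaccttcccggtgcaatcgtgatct
ZEB1, chr10:31318966-31319215, plus strand: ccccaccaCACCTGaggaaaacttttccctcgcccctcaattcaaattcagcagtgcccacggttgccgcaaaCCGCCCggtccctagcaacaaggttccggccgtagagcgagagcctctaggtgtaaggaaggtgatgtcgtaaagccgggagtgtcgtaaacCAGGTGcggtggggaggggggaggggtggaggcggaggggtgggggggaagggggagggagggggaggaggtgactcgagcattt
ZEB2, chr2:144520120-144520369, minus strand: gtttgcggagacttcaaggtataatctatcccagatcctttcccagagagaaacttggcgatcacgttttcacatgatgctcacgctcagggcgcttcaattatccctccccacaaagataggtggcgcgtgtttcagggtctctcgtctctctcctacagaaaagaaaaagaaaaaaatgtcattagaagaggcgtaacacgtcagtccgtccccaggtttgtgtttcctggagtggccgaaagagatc
The E-box occurs in 17.5% of all 35116 promoter windows of this length. Of the 13 windows of these genes it occurs in 2, both of ZEB1, and in the one shown it starts 242 and 85 bases before the start site. The GC box, present in 42.6% of all windows, starts 46 bases before the start site of VIM and 177 bases before that of the ZEB1 window, and is not among the letters of the ZEB2 window.

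No gene in the table passed the adjusted threshold of 0.05 in edgeR's quasi-likelihood test with all 6 libraries (0% of 16394). Every direction given here is thus a measured difference without an adjusted call in that fit. At an unadjusted p under 0.05, edgeR called 2546 genes, 15.5% of those tested, with 1340 (8.17%) higher and 1206 (7.36%) lower in knockdown. Of the 8 tested EMT genes 1 was higher, VIM, and 0 were lower at that level. DESeq2, which adjusted 530 genes below 0.05 (290 higher and 240 lower), put VIM among them and none of the other 7. In the lists below it also adjusted below 0.05 2 lower epithelial-state factors and 1 higher and 1 lower corepressor. To these it added 1 higher and 2 lower repressed epithelial genes, 2 higher and 1 lower further effectors and 1 higher gene for fibronectin receptors and assembly. The 8 tested EMT genes had a median log2 fold change of −0.41, against 0.00 over all genes, with 2 positive and 6 negative values. That median was −0.22 once a trend with GC content was removed, and −0.68 to −0.39 with 1 library left out. Both groups were fully apart for 2 of the 8, VIM above and ZEB2 below the controls, where 22.5% of all tested genes were apart. Since RNA was taken from whole cultures, a smaller share of cells expressing a gene and less RNA in each cell cannot be told apart.

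VIM, the type III intermediate filament protein of mesenchymal cells, was the one gene of the set that was higher than every control in each knockdown library. The gene (ENSG00000026025.13, plus strand) spans chromosome 10 from 17228259 to 17237593, GRCh38 as for all coordinates below. Knockdown replicates 1 to 3 had 111221, 100283 and 102830 VIM reads, against 69547, 66980 and 74048 in control replicates 1 to 3. As CPM these were 3177, 2491 and 2759 in knockdown, against 1840, 1839 and 1697 in control libraries. The lowest knockdown library was thus well above the highest control. The log2 fold change was 0.65 ± 0.16 (SE), or 1.57-fold (unadjusted p = 0.00318, adjusted p = 0.187 in edgeR). An exact permutation test on log2 CPM, two-sided, gave 0.1, the smallest p that 3 against 3 libraries allow. DESeq2 gave an adjusted p of 0.0148. Without knockdown replicate 2 the adjusted p from edgeR was 0.0174, and with any other library left out it was 0.108 to 0.623 while the log2 fold change stayed between 0.55 and 0.73. The library with the most CALR left, knockdown replicate 1, also had the most VIM, at 177% of the control mean, while replicates 2 and 3 were at 139% and 154%.

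Exons of genes on the other strand cover 24.4% of VIM's exon bases, namely VIM-AS1 and AL133415.1, and whether the counting used strand is not given in the sources used here, so antisense reads may be part of the VIM count. VIM-AS1 had 337 to 453 counts in knockdown and 415 to 498 in control libraries, or 0.303% to 0.452% and 0.620% to 0.716% of the VIM counts, and a log2 fold change of −0.18 ± 0.20. Annotated pseudogenes of VIM, SNAI1 and ZEB2 (VIM2P, SNAI1P1 and ZEB2P1) may share reads with their parent genes, so these counts carry that uncertainty.

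Of 19 listed genes for vimentin partners and other intermediate filaments, 13 were tested. Their log2 fold changes were positive for 10 and negative for 3, and the median was 0.37. In edgeR 3 were higher and 0 lower at p under 0.05 before adjustment, where 8.17% and 7.36% of all genes were. These were PLEC (plectin, which links intermediate filaments to other structures) at 0.49 ± 0.15, LMNA (nuclear lamins A and C) at 0.63 ± 0.20, and AURKB, a mitotic kinase that phosphorylates vimentin, at 0.55 ± 0.23. PLEC was at 568, 506 and 479 CPM in knockdown, against 375, 369 and 360 CPM in control libraries, with no overlap. AURKB libraries did overlap, since control replicate 1 at 64.3 CPM was above knockdown replicate 2 at 57.6 CPM. Without control replicate 3, 0 of the 13 were below that p (7.23% of all genes were), and without control replicate 2 it was 2 (8.48%). Without knockdown replicate 2 the count was 6 higher and 2 lower, in a fit that put 35.6% of all genes below that p.

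The SNAIL factors were both lower on average, and neither was apart from the controls. SNAI1 (ENSG00000124216.3, chromosome 20, 49982999 to 49988886) encodes SNAIL, a direct repressor of CDH1. It was at 1.0, 3.18 and 3.30 CPM in knockdown replicates 1 to 3, against 2.20, 5.77 and 4.75 CPM in controls. Control replicate 1 lay below 2 of the 3 knockdown libraries, so the groups overlapped, and with 35 to 128 counts in knockdown and 83 to 210 in control libraries the counts are small. The log2 fold change was −0.76 ± 0.49 (unadjusted p = 0.159, adjusted p = 0.468 in edgeR). SNAI2 (ENSG00000019549.8, chromosome 8, 48917604 to 48921740), which encodes SLUG, was at 17.0, 11.9 and 29.4 CPM in knockdown, against 28.0, 26.6 and 27.0 CPM in control libraries. The controls lay within a narrow band. Knockdown replicates 1 and 2 were at 62.5% and 43.7% of their mean, and replicate 3 was at 108%. Over all 6 libraries the log2 fold change was −0.49 ± 0.31 (adjusted p = 0.453 in edgeR), and without knockdown replicate 3 it was −0.90 (adjusted p = 0.102).

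ZEB1 and ZEB2, the paired zinc finger and homeodomain repressors, are given in turn; the difference between them was not tested. ZEB1 (ENSG00000148516.21, chromosome 10, 31318495 to 31529814) was at 15.2, 49.6 and 16.0 CPM in knockdown replicates 1 to 3, against 35.5, 25.3 and 31.9 CPM in controls. Knockdown replicates 1 and 3 were below every control, at 49.2% and 51.9% of the control mean, and replicate 2 was above every control, at 160%. The fitted log2 fold change of −0.20 ± 0.43 (adjusted p = 0.840 in edgeR) averages these opposite values. Without knockdown replicate 2 it was −0.98 with an adjusted p of 0.020, in a fit that called 2604 genes, and without replicate 1 or 3 it was 0.09 and 0.08. ZEB1-AS1, which starts beside ZEB1 on the other strand and covers 4.2% of its exon bases, was at 8.26, 9.19 and 8.42 CPM in knockdown, against 12.4, 9.61 and 10.4 CPM in control libraries. It was lower in all 3 knockdown libraries (log2 fold change −0.32 ± 0.20, unadjusted p = 0.145 in edgeR) and did not show the high value of ZEB1 in replicate 2.

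ZEB2 (ENSG00000169554.16, chromosome 2, 144364364 to 144524583) was at 8.20, 9.86 and 9.10 CPM in knockdown, against 11.6, 11 and 11.6 CPM in control libraries. The groups did not overlap, and the 3 knockdown libraries were at 71.9%, 86.5% and 79.8% of the control mean. The difference was small, with a log2 fold change of −0.33 ± 0.19 (unadjusted p = 0.119, adjusted p = 0.423 in edgeR; exact permutation p = 0.1). It was −0.39 to −0.26 with 1 library left out.

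TWIST1 and TWIST2 were near the limit of detection in this line. TWIST1 (ENSG00000122691.12, chromosome 7, 19020991 to 19117672) had 0, 0 and 19 reads in knockdown libraries, against 45, 15 and 24 in controls 1 to 3. TWIST2 (ENSG00000233608.3, chromosome 2, 238848032 to 238910543) had 0, 0 and 6 counts in the same knockdown libraries, and 24, 6 and 6 in the controls. Knockdown replicates 1 and 2 therefore held no read of either gene, and replicate 3 was within the CPM range of controls 2 and 3 for both. A count of 0 allows up to 3 counts, or 0.0857 and 0.0745 CPM in these libraries, and covers counting error only. Against the control mean of 0.717 CPM, TWIST1 was at least 8.37-fold lower in knockdown replicates 1 and 2, and TWIST2, at a control mean of 0.312 CPM, at least 3.65-fold lower. Without control replicate 1, which held most TWIST2 reads, these bounds were 5.61-fold and 1.76-fold. Over all libraries the fitted log2 fold change of TWIST1 was −2.06 ± 1.09 (unadjusted p = 0.091, adjusted p = 0.388 in edgeR). It was −1.45 without knockdown replicate 2 and −7.79 without knockdown replicate 3, where both knockdown libraries left have 0 reads and the fitted value is no bound. When no filter on low counts was set, edgeR gave adjusted p-values of 0.0129 for TWIST1 and 0.0469 for TWIST2, in a fit of 31582 genes that called 988. The SE in that fit was 0.556 for TWIST1 and 0.209 for FN1, against 1.09 and 0.42 with the filter. Among the 8 tested genes it was larger without the filter only for VIM and ZEB2. These p-values rest on the same small counts, in which knockdown replicate 3 overlaps the controls.

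**Figure D2:**
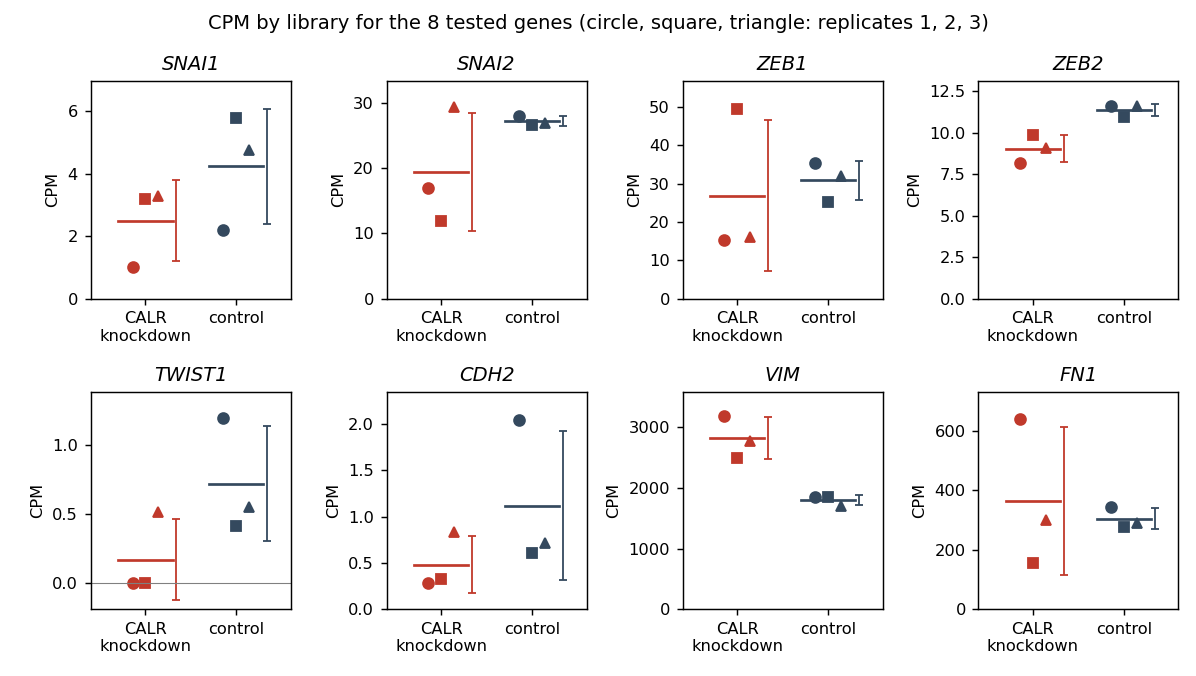
CPM of the 8 tested genes in each library, with knockdown left of control; lines are group means and bars 1 SD (n = 3). VIM and ZEB2 are the panels without overlap, ZEB1 has knockdown replicate 2 at 49.6 CPM above all controls, and TWIST1 has knockdown replicates 1 and 2 at 0.

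Both mesenchymal cadherins were scarce. CDH2 (ENSG00000170558.8, chromosome 18, 27950966 to 28177446) had 10, 13 and 31 counts in knockdown and 77, 22 and 31 in control libraries. In CPM this was 0.286, 0.323 and 0.832 in knockdown, against 2.04, 0.604 and 0.711 in control libraries. Knockdown replicates 1 and 2 were below every control, and replicate 3 was above controls 2 and 3. The log2 fold change was −1.21 ± 0.60 (unadjusted p = 0.0764, adjusted p = 0.366 in edgeR), and without control replicate 1, which held most of the control reads, it was −0.46, and without knockdown replicate 3 it was −1.84. CDH11 (ENSG00000140937.13, chromosome 16, 64943753 to 65126112), a cadherin of osteoblasts and fibroblasts, had 0, 6 and 2 counts in knockdown and 8, 3 and 6 in control libraries, too few to compare.

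The epithelial counterpart, CDH1, was also scarce, with 40, 17 and 2 reads in knockdown libraries, against 11, 12 and 5 in controls 1 to 3. Knockdown replicate 3 thus had the fewest CDH1 and the most CDH2 reads of its group, and replicate 1 the reverse. Among the controls, replicate 1 had the most CDH2 reads, 77, and replicate 3 the fewest CDH1 reads, 5, so these fell in different libraries. The difference in CDH1 between groups was not resolved (log2 fold change 1.13 with an unadjusted p of 0.213 in edgeR), and with knockdown replicate 1 left out it was −0.003.

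Of 22 other cadherin and catenin genes, 10 were tested. Before adjustment, edgeR put 3 higher and 3 lower at p under 0.05, beside 8.17% and 7.36% of all genes, and the median log2 fold change was 0.34. The higher ones were the adhesion genes CTNNA1 (alpha-catenin, 0.41 ± 0.14) and, named after their values were seen, CTNNB1 (beta-catenin, 0.39 ± 0.14) and VCL (vinculin, 0.53 ± 0.21). Lower were JUP (plakoglobin, −1.31 ± 0.47), P-cadherin CDH3 (−1.53 ± 0.55) and, named after its values were seen, CDH13 (T-cadherin, −2.76 ± 1.03, and −5.61 without knockdown replicate 3, which held most of the knockdown reads, or −1.79 without control replicate 1). CTNNA1 was at 549, 502 and 542 CPM in knockdown, against 398, 402 and 394 CPM in control libraries. CDH3 was at 0.0497 to 0.215 CPM in knockdown and 0.298 to 0.503 CPM in control libraries. Without knockdown replicate 2 the count was 3 higher and 1 lower, in a fit that put 35.6% of all genes below that p. It was 3 and 0 without control replicate 1, 0 and 2 without control replicate 2, and 0 and 3 without control replicate 3.

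FN1 (ENSG00000115414.18, chromosome 2, 215360440 to 215436172), the matrix glycoprotein assembled into fibrils through integrins, varied more among knockdown libraries than between groups. It was at 638, 156 and 299 CPM in knockdown replicates 1 to 3, against 346, 278 and 292 CPM in controls. Replicate 1 was at 209% of the control mean, replicate 2 at 51.0% and replicate 3 at 98.0%, so 1 knockdown library was above, 1 below and 1 within the control range. The log2 fold change was 0.26 ± 0.42 (adjusted p = 0.785 in edgeR) and turned to −0.42 without knockdown replicate 1 and to −0.10 on the log2(FPKM + 0.1) scale.

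Of 18 listed receptors and assembly factors of fibronectin 16 were tested, and 14 log2 fold changes were positive (median 0.44). In edgeR 7 were higher and 0 lower at p under 0.05 before adjustment, against 8.17% and 7.36% of all genes. Limma-voom also gave 7 and 0, and DESeq2 8 and 0. PLAUR, the urokinase receptor, was at 452, 210 and 486 CPM in knockdown, against 177, 215 and 196 CPM in control libraries (log2 fold change 0.97 ± 0.29). Its knockdown replicate 2 was within the control range. The integrin subunits ITGA5 and ITGB1, named after their values were seen, had log2 fold changes of 0.54 and 0.10 (unadjusted p = 0.0544 and 0.564 in edgeR). The integrin subunit ITGB3 was low, at 1.80, 1.59 and 1.42 CPM in knockdown and 0.952, 0.631 and 0.344 CPM in control libraries (1.32 ± 0.41), and TLN1 (talin), which couples integrins to actin, had a log2 fold change of 0.60 ± 0.21. Without knockdown replicate 1 the count was 2 higher and 1 lower, without control replicate 3 it was also 2 and 1, and without control replicate 2 it was 3 and 0. Without knockdown replicate 2 it was 10 higher and 1 lower of 17 tested, with 10 positive values. That fit put 35.6% of all genes below that p, and those without knockdown replicate 1 and control replicates 2 and 3 put 10.7%, 8.48% and 7.23%.

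**Figure D3:**
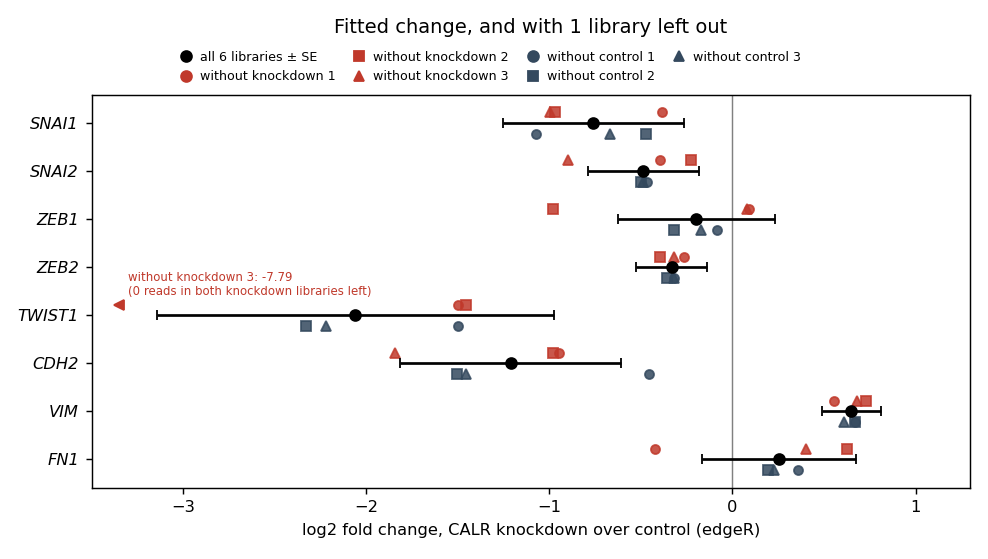
Fitted log2 fold change of the 8 tested genes, CALR knockdown over control, from edgeR with all 6 libraries (black, ± SE) and with each library left out (red for knockdown, blue for control). VIM stays between 0.55 and 0.73, ZEB1 and FN1 cross 0, and the TWIST1 value of −7.79 without knockdown replicate 3 rests on libraries with 0 reads.

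Taking the 8 tested genes library by library, the set did not move as a block. In each knockdown library 2 of the 8 were above and 6 below the control mean of log2 CPM, but only VIM was above it in all 3, beside FN1 in replicate 1, ZEB1 in replicate 2 and SNAI2 in replicate 3. SNAI1, ZEB2, TWIST1 and CDH2 were below the control mean in all 3. GC content moved with the libraries. The Spearman correlation across genes between GC content and the difference from the control mean was 0.316, −0.227 and 0.491 for knockdown replicates 1 to 3, against 0.016, 0.275 and −0.313 for the controls. After that trend was removed, VIM was at 0.55 ± 0.14, ZEB2 at −0.21, SNAI2 at −0.23 and TWIST1 at −2.29.

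The other genes of the EMT network went in both directions. Of 20 further EMT transcription factors and regulators of such factors 14 were tested, with 3 positive and 11 negative log2 fold changes (median −0.28). The negative ones include the regulators ID1, ID2 and ID3, named after their values were seen (−0.049, −0.987 and −0.141). In edgeR 0 were higher and 1 lower at p under 0.05 before adjustment (8.17% and 7.36% of all genes), the 1 being the forkhead factor FOXC1, at 7.40, 8.87 and 14.5 CPM in knockdown, against 13.7, 18.5 and 19.7 CPM in control libraries (−0.75 ± 0.29). Limma-voom and DESeq2 each gave 3 lower and 0 higher. The forkhead factor FOXC2 had a log2 fold change of −2.01 ± 0.89 (unadjusted p = 0.0512) at no more than 1.22 CPM in any library, and the SOX factor SOX4 one of −0.94 ± 0.45 (unadjusted p = 0.0654), both in edgeR and both lower in all 3 knockdown libraries. Without knockdown replicate 3 FOXC2 was at −4.39. Without knockdown replicate 1 or control replicate 2 or 3, edgeR counted 0 lower. Of all genes 10.7%, 8.48% and 7.23% were at an unadjusted p under 0.05 in those fits. EdgeR counted 4 lower without knockdown replicate 2 and 5 without knockdown replicate 3, where 35.6% and 16.9% of all genes were below that p.

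Factors that hold the epithelial state were divided. Of 17 listed 9 were tested, and in edgeR 2 were higher and 2 lower at p under 0.05 before adjustment, beside 8.17% and 7.36% of all genes (median −0.54). The Krüppel-like factor KLF5 was at 16.3, 22.4 and 24.7 CPM in knockdown, against 47.6, 44.3 and 40.1 CPM in control libraries (−1.05 ± 0.20). KLF4, of the same family, was at 80.2, 78.1 and 127 CPM, against 135, 193 and 184 CPM (−0.84 ± 0.23). TP63, a basal epithelial factor, was higher at 1.29, 0.596 and 0.617 CPM, against 0.317, 0.302 and 0.367 CPM (1.32 ± 0.43), and GATA3, a luminal factor named after its values were seen, had a log2 fold change of 0.48. Without knockdown replicate 1 or control replicate 2, 0 were higher (10.7% and 8.48% of all genes were below that p either way). Without knockdown replicate 2, 4 were lower, in a fit that put 35.6% of all genes below that p. OVOL1, OVOL2, GRHL2, GRHL3, ELF5 and ESRP1 were too low to test in both groups.

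Among corepressors recruited by these factors all 20 listed were tested, with a median log2 fold change of 0.12 that was 0.00 with library size alone. In edgeR 2 were higher and 1 lower at p under 0.05 before adjustment, where 8.17% and 7.36% of all genes were. Without knockdown replicate 2 it was 7 and 2, in a fit that put 35.6% of all genes below that p. For 8 of the 20 every knockdown library was above every control, and for 1 every one was below, where 11.3% and 11.2% of all tested genes were so. The histone H3 lysine 9 methyltransferases SUV39H1 (0.73 ± 0.18) and EHMT2 (0.43 ± 0.17) were higher. SUV39H1 was at 29.1, 22.5 and 26.0 CPM in knockdown, against 16.1, 16.2 and 14.6 CPM in control libraries. WTIP, a LIM protein of the AJUBA family, was lower (−0.97 ± 0.28). Of 17 tested genes that act on the stability of SNAIL, SLUG and TWIST proteins, 0 were below p of 0.05 before adjustment in edgeR or limma-voom and 1 was in DESeq2. In edgeR without knockdown replicate 2, 3 were higher and 5 lower, in a fit that put 35.6% of all genes below that p. LOXL2, a lysyl oxidase that binds SNAIL, came closest in edgeR at 0.83 ± 0.37 (unadjusted p = 0.0501, and 0.34 without knockdown replicate 1), followed by the kinase LATS2 (−0.40 ± 0.18) and the deubiquitinase USP27X (−0.46 ± 0.24).

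Epithelial genes that EMT factors are known to repress were lower more often than higher. Of 30 listed 27 were tested, and in edgeR 9 were lower and 2 higher at p under 0.05 before adjustment, where 7.36% and 8.17% of all genes were. The median log2 fold change was −0.26, with 15 negative and 12 positive values. DSP (desmoplakin) was at 14.5, 16.7 and 20.4 CPM in knockdown, against 40.2, 32.3 and 39.6 CPM in control libraries (−1.12 ± 0.20). CRB3, a polarity gene, had a log2 fold change of −1.97 ± 0.48 but was at no more than 0.769 CPM in any library. CDH3 and MARVELD3, the latter named after its values were seen, were also counted as lower, at no more than 0.503 and 0.413 CPM. So were JUP, given above, and LSR, PPL, MUC1 and CGN, named after their values were seen. Their log2 fold changes were −1.31, −1.92, −1.59, −1.34 and −0.57. In control libraries they were at 10.1 to 18.6, 7.72 to 15, 1.95 to 7.64, 1.24 to 2.96 and 6.12 to 8.12 CPM. Without control replicate 1 PPL was at −0.66. KRT8, KRT18, KRT19 and EPCAM, named after their values were seen, had log2 fold changes of 0.038, 0.037, 0.177 and −0.055. None of these 4 was below that p. CLDN4 (claudin 4) was higher, at 86.6, 69.7 and 60.9 CPM, against 45.2, 33.3 and 30.1 CPM (1.0 ± 0.22), as was the protease inhibitor SPINT2 (0.56), named after its values were seen. With 1 library left out the count was 3 to 10 lower and 1 to 5 higher. The 3 lower came without control replicate 1, where 11.1% of all genes were below that p. The 5 higher came without knockdown replicate 2, where 35.6% were. CDH1, CDH3 and JUP stand in this list and in that of cadherins and catenins. ITGA5, NES and PAK1 also stand in more than 1 of the lists.

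Mesenchymal effectors outside the set also divided. Of 36 listed 29 were tested, and in edgeR 4 were higher and 5 lower at p under 0.05 before adjustment, beside 8.17% and 7.36% of all genes. The median log2 fold change was 0.26. With 1 library left out, 2 to 7 were higher and 2 to 5 lower. The 2 lower came without control replicate 1, and 7 higher without that library or knockdown replicate 2. In these fits 11.1% and 35.6% of all genes were below that p. MMP14, a membrane metalloprotease, was at 855, 550 and 1140 CPM in knockdown, against 365, 369 and 366 CPM in control libraries (1.21 ± 0.25). The secreted matrix protein CTHRC1 was at 7.17, 5.19 and 3.70 CPM, against 2.41, 2.72 and 2.48 CPM (1.08 ± 0.30). SERPINE2, a secreted protease inhibitor, was lower at 22.9, 22.2 and 42 CPM, against 75.6, 66.5 and 67.6 CPM (−1.27 ± 0.26). The others, named after their values were seen, were the actin-binding CNN3 (0.44) and the receptor kinase AXL (0.52), higher, and MMP2 (−2.22), COL1A1 (−0.91), DCN (−2.23) and COL5A2 (−1.26), lower. Without knockdown replicate 3 MMP2 was at −3.66 and DCN at −3.02, without knockdown replicate 2 DCN was at −1.62, and without control replicate 1 COL5A2 was at −0.49. MMP2 and DCN reached no more than 1.14 and 2.88 CPM in any library, and DCN and COL1A1 also stand among the fibroblast markers whose sums are given above. Whether the level of those markers plays a part in these differences was not tested.

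**Figure D4:**
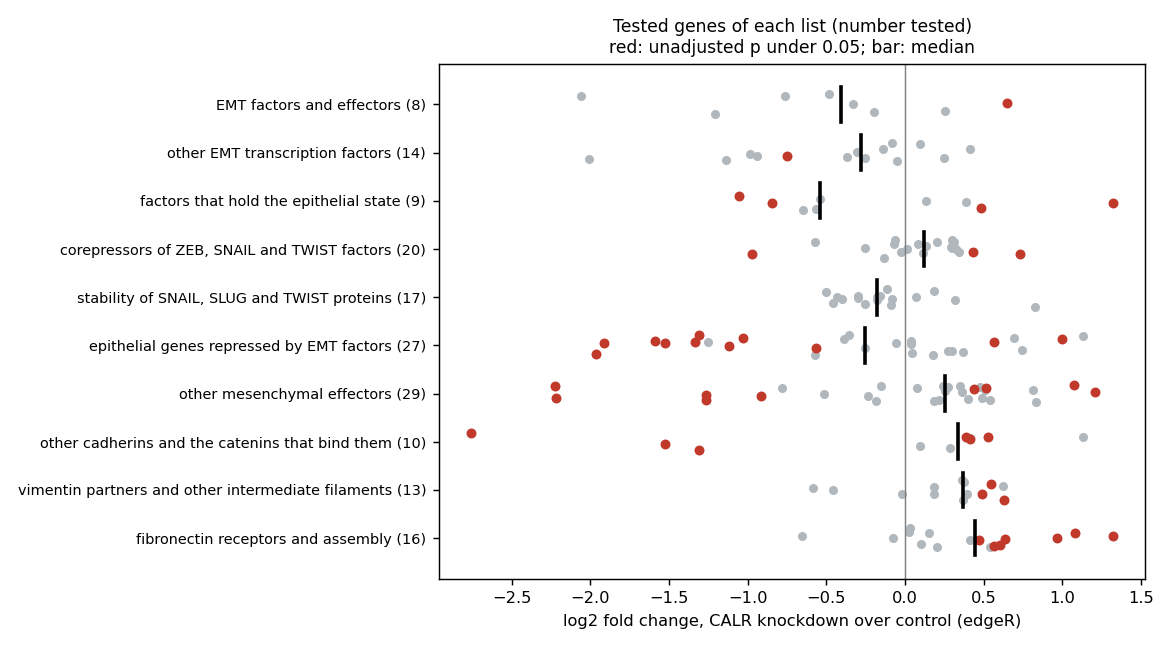
Log2 fold change, CALR knockdown over control (edgeR), of every tested gene in the EMT set and in the lists around it, with the number tested in parentheses, genes at an unadjusted p under 0.05 in red and the list median as a bar. The EMT set has VIM as its single red point and a median of −0.41, and the fibronectin receptor list has a median of 0.44.

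The genes whose log2 CPM profile over the 6 libraries lay nearest to each tested gene, by root mean square difference after centring and among genes with a mean log2 CPM of at least 1, show how close such matches were. For VIM, whose own range was 0.90 on the log2 scale, they were PSME1, a proteasome activator subunit, and SUV39H1, at 0.030 and 0.044. For ZEB2 they were GGPS1 and ZCCHC7 (0.033 and 0.041), for ZEB1 ZDHHC21 and RBM26 (0.070 and 0.092), and for FN1 EFEMP2, an extracellular matrix protein, and ANKZF1 (0.094 and 0.11). SNAI2 had RP11-111F5.4 and CTB-58E17.1 (0.090 and 0.099), SNAI1 RSAD2 and AOC2 (0.199 and 0.273), CDH2 CITED4 and RAP1GAP2 (0.188 and 0.295) and TWIST1 NEO1 and SLC16A1 (0.423 and 0.448).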

How the data were processed

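RNA sequencing of 6 MDA-MB-231 libraries, 3 CALR knockdown and 3 control, was grouped by sample title. The deposited raw counts per gene were whole numbers, with library totals of 34639090 to 42425310, and the deposited FPKM values were computed by the authors and rounded. FastQC 0.9.5, TopHat2 and GRCh38 come from the submitters' processing notes. Which program counted reads, with which annotation and whether by strand, is not given in the sources used here.

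Genes were kept with filterByExpr in edgeR 4.0.16 (R 4.3.3), scaled with TMM factors and compared by the quasi-likelihood F-test with Benjamini-Hochberg adjustment over all 16394 tested genes. A standard error is the absolute log2 fold change over the square root of F. CPM uses TMM-scaled library sizes, and log2 CPM a prior count of 2. Alternatives used DESeq2 1.42.0, limma 3.58.1 and the settings named with the closing results. The code was tested on simulated data. Deviations of same-numbered libraries from their group means correlated at 0.195, −0.119 and −0.217, so numbers were not treated as pairs. Coordinates are from GENCODE 29, counted from 1; 30871 of 31582 gene IDs matched without version. GC content is the median over a gene's GENCODE transcripts and was available for 16294 tested genes.

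The members and gene lists were chosen with earlier results of these data known. Named genes are the 10 members and CALR, the 3 tested genes of each list with the smallest p, and for each tested member the 2 nearest profiles. Other genes at an unadjusted p under 0.05 in a short list, and a few list genes above it, are also named. They are marked as named after their values were seen.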

Additional observations from a re-analysis of the deposited data

How the results depend on the processing

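Genes past the adjusted threshold numbered 0 with edgeR (2546 at an unadjusted p under 0.05), 530 with DESeq2, 0 with limma-voom, 988 with no low-count filter, 5 with limma on log2(FPKM + 1) without a filter, 4 after the GC trend was removed, and 0 to 2604 with 1 library left out, the highest without knockdown replicate 2 and 138 without knockdown replicate 3. Genes at an unadjusted p under 0.05 were 3888 with no filter and 1206 to 5978 with 1 library left out. EMT genes at that level were 1 in the reported fit, 2 with limma-voom, with limma on log2(FPKM + 1) and on log2(FPKM + 0.1), 3 with library size alone, with limma on log2(FPKM + 1) without a filter, with the replicate block and with the GC correction and replicate block together, 5 with no filter, and 1 to 4 with 1 library left out. VIM was among them each time.

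Library size alone moved the median of all genes to −0.13 and the FPKM scale with a pseudocount of 0.1 to −0.11, and SNAI2 and CDH2 were below an unadjusted p of 0.05 with the first (0.0400 and 0.0459). At an unadjusted p under 0.05, 1340 genes were higher and 1206 lower as reported, 730 and 1809 with library size alone, and 679 and 1318 on log2(FPKM + 1). Counts for the gene lists under other settings were added after seeing the data. VIM was between 0.51 and 0.73 under all 18 alternatives, SNAI2 between −0.90 and −0.23, SNAI1 between −1.07 and −0.38 and ZEB2 between −0.46 and −0.20 wherever they were tested. FN1 turned to −0.088 and −0.10 on the FPKM scale with pseudocounts of 1 and 0.1, to −0.088 without the filter there, to −0.015 with GC correction and replicate block, and spanned −0.42 to 0.62 with 1 library left out. ZEB1 spanned −0.98 to 0.089 with 1 library left out. CALR spanned −3.55 to −1.78, and with no filter was at −2.20 (adjusted p = 1.45e-19); the cause of these differences was not tested. The replicate numbers only name libraries: deviations from the group means correlated at 0.195, −0.119 and −0.217 for equal numbers, and knockdown replicates 2 and 3 correlated best with another number. With the replicate block 2209 genes were below an unadjusted p of 0.05 and 0 passed the adjusted threshold. Beside VIM, SNAI1 and TWIST1 were below that unadjusted p in edgeR with the block (0.0262 and 0.0351). With block and GC correction together they were at 0.00829 and 0.0334. Depth limits TWIST1, TWIST2, CDH2 and CDH11, which had at most 77 counts in a library.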
